A study of Mus musculus with 22 samples.

Results

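The responses of whole mouse embryos to 2 pluripotency factors, Oct4 and Nanog, were compared gene by gene at E9.5, embryonic day 9.5. All libraries of that stage were taken, 11 of the 22 in the series. Every embryo was of the C57BL/6 background and was labelled either ROSA26tg/+; Oct4tg/+ or ROSA26tg/+; Nanogtg/+, so controls carried the same transgenes as induced embryos. Induced dams drank doxycycline, which switches the transgene on, from E6.5 to E9.5; control dams received none. The Oct4 line had 3 control pools (replicates 1, 2 and 3) and 3 induced pools (replicates 3, 4 and 5). The Nanog line had 2 control pools (replicates 2 and 3) and 3 induced pools (replicates 1, 2 and 3). A pool held 3 whole embryos, no group received doxycycline without a transgene, and the age of the dams was 6 to 7 weeks at mating.

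Oct4, the product of Pou5f1, is a POU-family transcription factor that binds an octamer sequence and keeps early embryo cells undifferentiated. Nanog is a homeodomain transcription factor that acts with it in those cells. Both are normally silenced in somatic tissue as gastrulation ends. E9.5 embryos are building the neural tube, somites, heart and blood vessels, and their circulating red cells are the primitive generation made in the yolk sac.

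Libraries held 4.72 to 15.8 M expected counts, a unit that divides reads fitting several genes between them. Levels are given as CPM: counts set to one library size, with TMM scaling as a correction for library composition. Fold changes are log2 differences with a standard error (SE) worked back from the test described next. That test estimates the spread between pools with help from other genes, so the SE is not the observed spread of a group. A gene was called where edgeR's quasi-likelihood test, fitted over all 11 pools and 14604 genes, gave an adjusted p (Benjamini-Hochberg) under 0.05. The interaction is the Oct4 response minus the Nanog response, each against its own controls. A positive interaction means a higher response to Oct4 than to Nanog. Markers of heart, endothelium, neurons, somites and blood were present in every group, and 19 markers of maternal decidua and blood summed to between 30.4 and 77.8 CPM. Because whole embryos were sequenced, fewer cells of a type and less RNA per cell cannot be told apart.

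The Nanog control pools stood apart from the other 9, and every difference between the lines rests in part on them. Genes in the decile with the highest GC content took 4.19% and 4.43% of counts in the Nanog controls and 5.62% to 6.46% in all other pools. Across deciles of genes by GC content, the median interaction ran from 0.21 in the lowest to -0.36 in the highest. The Nanog controls were also the deepest pools, at 15.8 and 15.7 M counts, against 4.77 to 5.63 M in Nanog induced pools. The labels name GAII and HiSeq 2500 sequencers without saying which pool ran on which, so sequencing run and group cannot be told apart. A GC correction of each library and a direct comparison of induced pools against each other, with the Oct4 controls as the common reference, were therefore added after the data were seen. A call is described as kept when it passed in both of these fits with the same direction. The GC correction removes any trend with GC content, whatever its source. The direct comparison leaves out the Nanog control pools, but any standing difference between the lines then enters it; the controls of the lines differed at 3619 genes (24.8%).

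**Figure D1:**
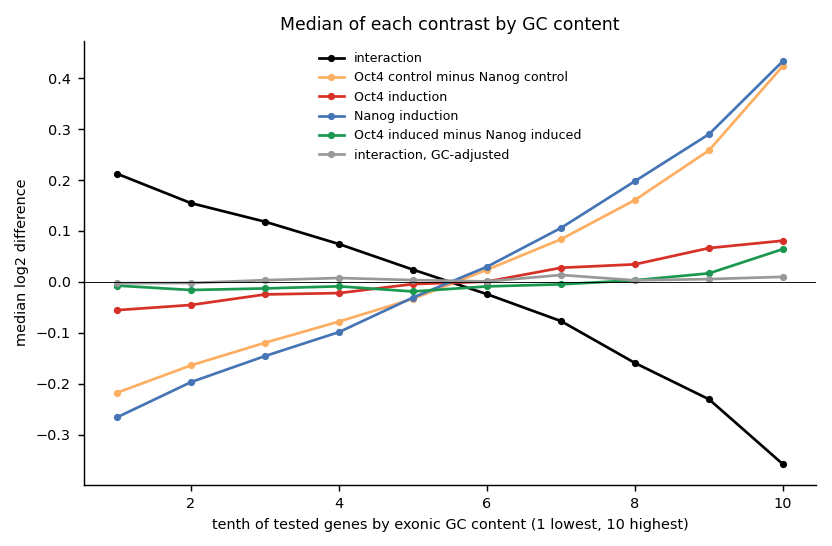
Median log2 difference of the genes in each decile by exonic GC content (horizontal axis, lowest to highest), one line per comparison; the Nanog response and the difference between control groups climb with GC content, the interaction falls from 0.21 to -0.36, and the comparison of induced pools stays between -0.02 and 0.06.

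Each transgene was induced in its own line only. Pou5f1 lay at 0.886, 0.424 and 1.30 CPM in Oct4 controls and at 257, 257 and 280 CPM in Oct4 induced pools. It lay at 0.977 and 1.04 CPM in Nanog controls and between 0.582 and 1.88 CPM after Nanog induction. Nanog lay at 352, 347 and 348 CPM in Nanog induced pools, against 2.41 and 2.09 CPM in their controls. In the Oct4 line it lay at 1.43, 1.06 and 0.956 CPM after induction and no higher in controls, with a log2 difference of 0.44 ± 0.32 (SE) and an edgeR adjusted p of 0.566. Neither factor's gene was therefore called as changed by the other. Reads of a transgene and of the endogenous gene are not separated in these counts.

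The responses were called as different at many genes. The interaction passed the test at 1970 genes, 13.5% of those tested, with 813 higher (5.57%) and 1157 lower (7.92%) in the Oct4 response. At an unadjusted p under 0.05 there were 4106 (28.1%). Oct4 induction alone called 1040 genes (7.12%) and Nanog induction 4474 (30.6%). Both inductions were called at 423 genes in either direction. Calls of both in the same direction numbered 345 (2.36% of genes), which is 33.2% of the Oct4 calls and 7.71% of the Nanog calls. These shares stand beside the 30.6% of all genes called with Nanog and the 7.12% called with Oct4. Over all tested genes the log2 responses had a Pearson r of 0.017 and a Spearman rho of 0.23. With a GC correction, described below, the Pearson r was -0.0097. Opposite calls with a called interaction numbered 78 (0.534%). Genes are termed Oct4-specific where the interaction and the Oct4 response passed and the Nanog response did not; there were 233 (1.6%), and 1521 (10.4%) were Nanog-specific by the reverse rule. Control and induced pools did not overlap for 27.3% of genes in the Oct4 line and 51.8% in the Nanog line, where only 2 controls had to be separate. The remaining 108 interaction calls (0.74%) came without a call in either line, and 30 (0.205%) lay among the genes that moved in the same direction.

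Most Nanog-specific interaction calls were not kept in the added fits, while most of those at Oct4-specific and opposite genes were. The GC correction alone kept 560 interaction calls (3.83%) and the direct comparison 529 (3.62%); both kept 366 (2.51%), 207 higher and 159 lower. Calls that stood in every fit without 1 pool numbered 678 (4.64%). Of 107 Oct4-specific genes with a higher interaction (0.733%) 76 were kept, and of 126 with a lower one (0.863%) 65. Of 931 genes higher with Nanog and Nanog-specific (6.37%) 55 were kept, and of 590 lower with Nanog (4.04%) 77. At genes called in opposite directions the interaction was kept for 41 of 46 that rose with Oct4 and fell with Nanog (0.315%), and for 25 of 32 that did the reverse (0.219%). The opposite directions themselves held less often: with the GC correction both inductions were still called for 31 of the 46, but for only 4 of the 32. Tested anew with the GC correction, the interaction was called at 745 genes (5.1%), 371 higher (2.54%) and 374 lower (2.56%), and in the direct comparison at 1198 (8.2%). With the GC correction, genes called in both lines in the same direction made up 11.8% of the Oct4 calls and 12.6% of the Nanog calls. Sizes were modest, with a median absolute log2 difference of 0.45 among called interactions.

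**Figure D2:**
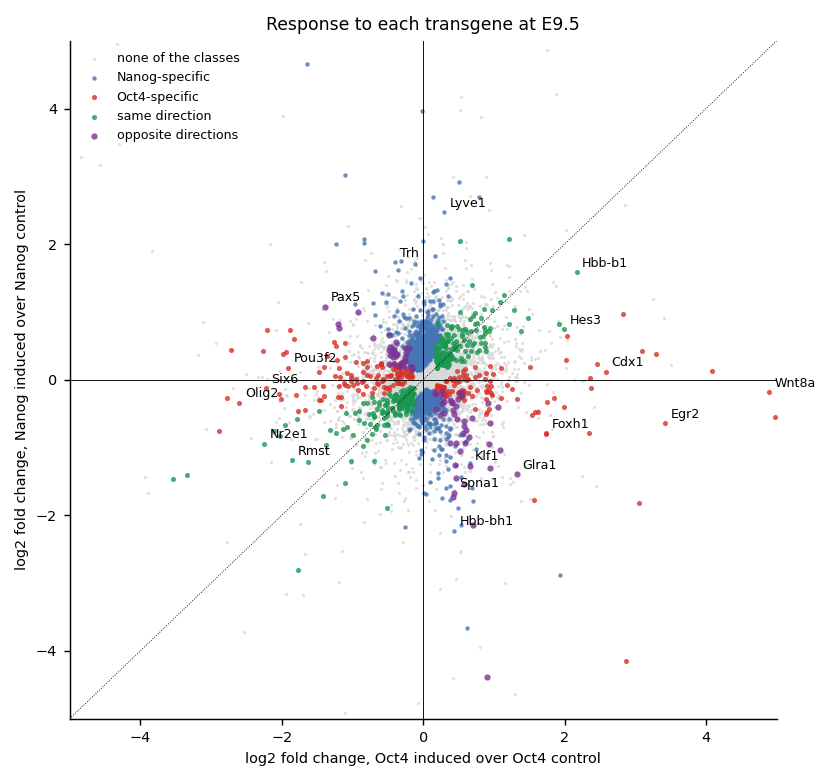
Log2 response to Oct4 (horizontal) against log2 response to Nanog (vertical) for each tested gene at E9.5, coloured by class; 73 genes lie beyond the plotted range of 5 log2 units, and Oct4-specific genes spread along the horizontal axis while the larger Nanog-specific class spreads along the vertical one.

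Promoter sequence was examined because the induced factors bind known short sequences: the 250 bases before each RefSeq start were searched on both strands for the POU octamer ATGCAAAT, the homeodomain core TAATGG, the GATA box AGATAA and the CACCC box CCNCNCCC. Of 10926 tested genes with a promoter in the table, 1.57% held an octamer in at least 1 start window. Among genes higher only with Oct4 8 of 80 held it (10 of 116 windows, 8.62%), and among genes lower only with Oct4 1 of 91 (1.1% of genes, 0.82% of windows); over windows of all tested genes the share was 1.27%. Pim2, Egr2, Evx1 and Aldh1a2 are shown because all 4 were higher only with Oct4, were kept, and hold an octamer; Evx1 was chosen after its values were seen. Windows are on build GRCm38.p6, plus strand: chrX:7878056-7878305 for Pim2, chr10:67537619-67537868 for Egr2, chr6:52313248-52313497 for Evx1 and chr9:71215539-71215788 for Aldh1a2. Capitals mark any of the 4 motifs on either strand, so ATTTGCAT is an octamer read from the other strand and CCATTA a homeodomain core.
Pim2: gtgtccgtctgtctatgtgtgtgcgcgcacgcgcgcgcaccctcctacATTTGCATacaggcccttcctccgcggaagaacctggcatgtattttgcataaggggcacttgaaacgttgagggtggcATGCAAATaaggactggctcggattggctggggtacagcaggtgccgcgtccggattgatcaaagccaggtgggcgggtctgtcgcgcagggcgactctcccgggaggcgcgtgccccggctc
Egr2: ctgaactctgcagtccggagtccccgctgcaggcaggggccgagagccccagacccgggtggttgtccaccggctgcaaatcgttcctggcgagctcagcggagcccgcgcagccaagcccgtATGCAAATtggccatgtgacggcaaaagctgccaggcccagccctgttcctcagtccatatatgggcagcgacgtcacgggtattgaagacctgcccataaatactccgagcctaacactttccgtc
Evx1: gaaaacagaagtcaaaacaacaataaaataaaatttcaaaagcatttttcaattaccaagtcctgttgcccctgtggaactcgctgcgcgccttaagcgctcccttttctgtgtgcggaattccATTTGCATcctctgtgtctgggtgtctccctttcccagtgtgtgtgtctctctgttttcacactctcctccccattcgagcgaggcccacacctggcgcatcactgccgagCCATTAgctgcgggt
Aldh1a2: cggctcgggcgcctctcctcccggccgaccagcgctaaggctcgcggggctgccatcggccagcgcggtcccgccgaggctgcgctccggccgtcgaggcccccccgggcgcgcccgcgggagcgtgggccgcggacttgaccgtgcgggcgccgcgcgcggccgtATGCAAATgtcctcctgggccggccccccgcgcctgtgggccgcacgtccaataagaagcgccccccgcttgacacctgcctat
The Pim2 window holds 2 octamers and the others 1 each, and the Egr2 match lies in 3 overlapping windows of alternative starts. Nanog-specific genes were not searched as a set, so the homeodomain core was not examined for the Nanog response. It was found in 5 of 80 genes higher (6.25%) and 9 of 91 genes lower (9.89%) only with Oct4, against 5.0% of tested genes. The GATA box was found in 5.0% and 6.59%, against 7.18%, and the CACCC box in 68.8% and 74.7%, against 69.4%. These matches are descriptions of the reference sequence and show no binding.

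Several genes of the caudal embryo rose with Oct4 and had a lower response to Nanog. In the list of primitive streak and nascent mesoderm genes, the interaction was higher at 6 and lower at 1 of 17 tested members, of which 5 and 0 were kept. The shares over all genes were 5.57% higher and 7.92% lower. Oct4 induction raised 11 of these members, against 3.6% of all genes, and Nanog induction 5, against 15.7%; with the GC correction the counts were 10 and 1, against 3.83% and 3.35%. Cdx1, a caudal homeobox gene that positions the trunk, lay at 3.54, 4.52 and 3.38 CPM in Oct4 controls and 19.7, 27.1 and 24.6 CPM in Oct4 induced pools. In the Nanog line it lay at 3.71 and 3.00 CPM in controls and 3.13, 4.78 and 2.91 CPM after induction. The Oct4 groups did not overlap and the Nanog groups did, and the interaction of Cdx1 was 2.47 ± 0.31 (edgeR adjusted p = 1.67e-05). Nkx1-2, a homeobox gene of the posterior growth zone, varied more among controls. It lay at 2.77, 5.58 and 10.8 CPM in Oct4 controls and 30.2, 32.9 and 31.1 CPM in Oct4 induced pools, and at 9.64 and 5.15 CPM before and 4.79, 3.72 and 4.46 CPM after Nanog induction. Its interaction of 3.12 ± 0.65 was called (edgeR adjusted p = 0.0206) and kept, but remained called in 8 of the 11 fits that each left out 1 pool. Rspo3, an enhancer of Wnt signalling, moved in opposite directions, with log2 responses of 0.47 to Oct4 and -0.40 to Nanog. With the GC correction 0 members of this list were called as lower with Nanog, so the fall of Rspo3 was not called there. Sp5, a Wnt target, went the other way, at 0.14 with Oct4 and a called 1.16 with Nanog, but its interaction was not kept.

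The patterning genes Egr2 and Wnt8a gave large Oct4-specific rises. Egr2 encodes a zinc-finger factor of hindbrain rhombomeres and lies on chromosome 10 (66998223 to 67004936, NCBIM37). It lay at 1.11, 1.20 and 0.78 CPM in Oct4 controls and 16.8, 9.12 and 7.77 CPM in Oct4 induced pools. In Nanog controls it lay at 1.11 and 1.30 CPM and in Nanog induced pools at 0.833, 0.885 and 0.582 CPM. The Oct4 induced pools were thus above all other pools, and the interaction of Egr2 was 4.06 ± 0.58 (edgeR adjusted p = 0.000101). Its promoter is among those printed above. Wnt8a, a Wnt ligand of the gastrula, lay at 0.553, 0.353 and 0.65 CPM before and 14.4, 16.3 and 14.2 CPM after Oct4 induction, a log2 response of 4.89 ± 0.29. It stayed at or below 0.417 CPM in all 5 Nanog pools, which is too few counts for a fold change in that line. Hoxb1, an early gene at the 3′ end of its cluster, gave an interaction of 0.90 ± 0.17, which was kept.

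Many Hox genes rose with Oct4, mostly without a called difference from Nanog. Oct4 raised 7 of 10 tested Hoxa genes, 5 of 9 Hoxb, 5 of 7 Hoxc and 5 of 9 Hoxd genes, against 3.6% of all genes; Nanog raised 1, 4, 3 and 2 of them, against 15.7% of all genes. With the GC correction Oct4 raised 7, 3, 5 and 5 of them and Nanog 0, 1, 0 and 0, against 3.83% and 3.35% of all genes. Called interactions in the Hox clusters included those of Hoxa2, Hoxb1 and Hoxd8, each higher with Oct4 and kept. Hoxd8 had the smallest of these, at 0.69 ± 0.22. At Hoxc9 the log2 responses were 0.87 and 0.68, and the interaction was 0.19 with a 95% interval of -0.48 to 0.86. At Hoxa13 they were 1.81 and 0.54 without a called interaction. A missed interaction does not show equal responses.

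The responses differed at 3 pluripotency genes of the core and naive list, each higher in the Oct4 response. Of 13 tested members, 3 had a higher interaction and 0 a lower one, against 5.57% and 7.92% of all genes; Lefty2, Lin28a and Sox2 were these, and all were kept, against 2.51% of all genes. Lefty2, a secreted inhibitor of Nodal, lay at 1.81, 1.70 and 1.67 CPM in Oct4 induced pools, at or below 0.13 CPM in both sets of controls and at 0 in all Nanog induced pools. Its relative Lefty1 lay at 2.76, 2.33 and 2.87 CPM in Oct4 induced pools and at or below 0.177 CPM elsewhere, without a called interaction. The levels outside the Oct4 induced pools rest on a few counts, so no fold change is given. Foxh1, the DNA-binding partner of Smads in Nodal signalling, lay at 2.77, 2.97 and 2.60 CPM before and 8.67, 12.5 and 7.65 CPM after Oct4 induction. It lay at 1.82 and 2.41 CPM before and 1.88, 1.06 and 0.776 CPM after Nanog induction, and its interaction was 2.53 ± 0.43. Lin28a, an RNA-binding protein of immature cells, lay at 323, 361 and 402 CPM in Oct4 controls and 520, 480 and 459 CPM in induced pools. In the Nanog line it lay at 355 and 340 CPM before and 351, 359 and 355 CPM after induction, and its interaction was 0.40 ± 0.10. Sox2 entered for the reverse reason: it fell with Nanog by 0.47 on the log2 scale and had a log2 response of -0.13 to Oct4.

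Among 11 tested primed epiblast genes, 3 had a higher interaction, all kept, and 0 a lower one, against 5.57% and 7.92% of all genes. Pim2, a growth-promoting kinase whose promoter is printed above, lay at 9.30, 8.97 and 9.22 CPM in Oct4 controls and 27.3, 23.5 and 27.1 CPM in Oct4 induced pools. It lay at 9.31 and 8.22 CPM before and 8.96, 10.4 and 10.5 CPM after Nanog induction. The interaction of Pim2 was 1.33 ± 0.18, and the spread within each group was small. Fst, the activin antagonist follistatin, rose with Oct4 by 1.06 and fell with Nanog by 0.40 on the log2 scale, an interaction of 1.46 ± 0.17. Otx2, Zic2 and Dnmt3a had interactions of 0.06, 0.14 and -0.05 that were not called. Outside these lists, Tmem229b (2.34 ± 0.23), a membrane protein, Pak1 (0.91 ± 0.09), a kinase of the cytoskeleton, and Ephx2 were among the Oct4-specific calls with the lowest p. Ephx2, an epoxide hydrolase, rose from 1.66, 2.90 and 2.34 CPM to 16.7, 18.2 and 25.6 CPM with Oct4 and lay between 1.63 and 3.01 CPM in all Nanog pools.

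**Figure D3:**
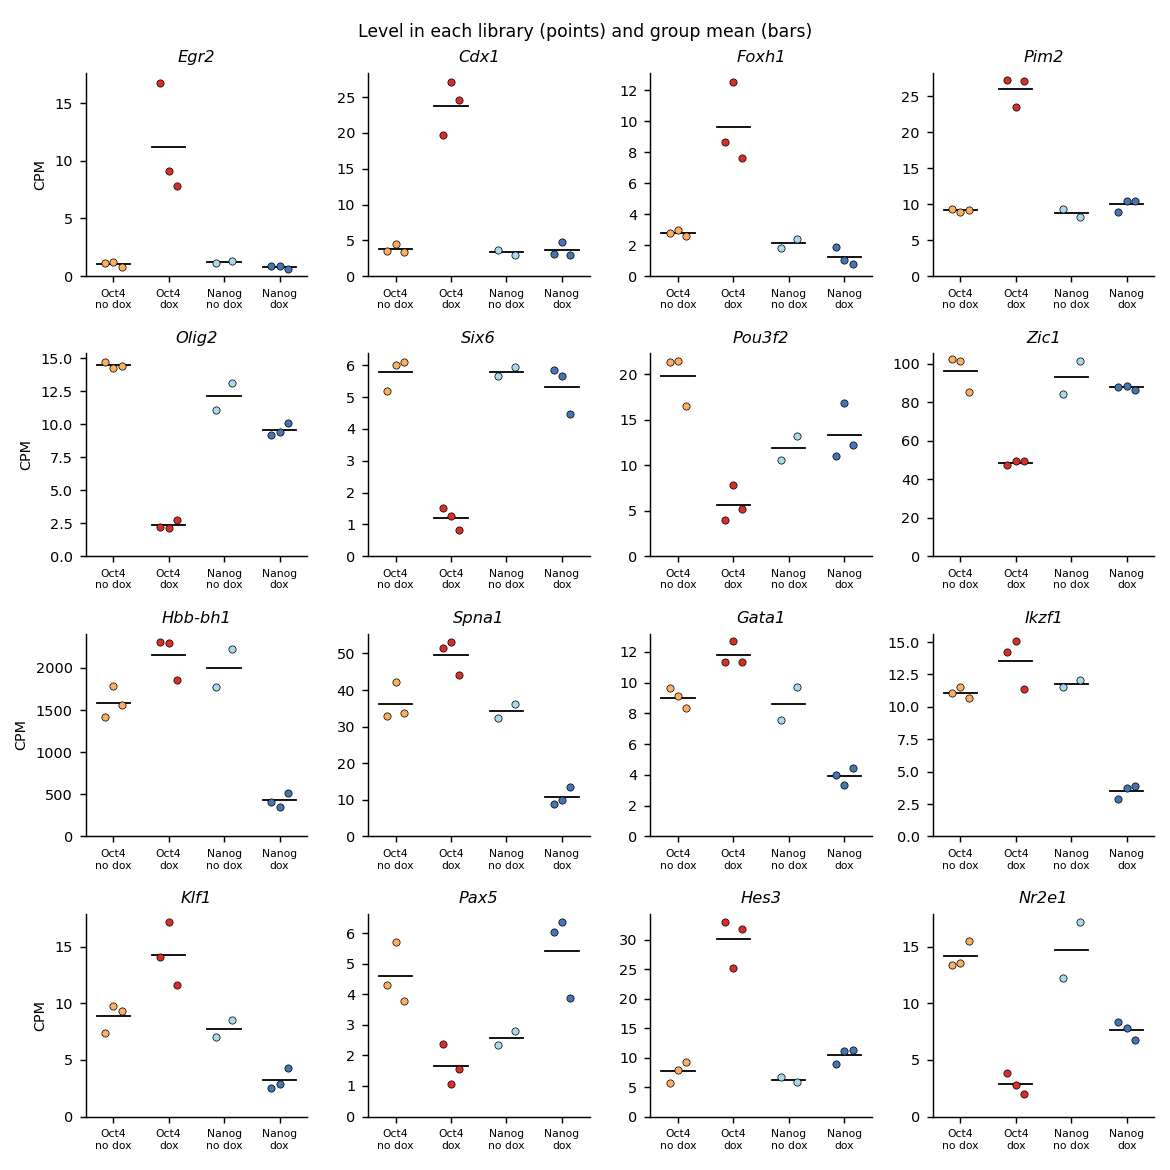
CPM of 16 genes in each of the 11 pools (points, with bars for group means; linear vertical axis from 0), grouped as Oct4 control, Oct4 induced, Nanog control and Nanog induced; the Oct4 induced pools stand apart for Egr2, Cdx1, Foxh1 and Pim2 above and for Olig2, Six6, Pou3f2 and Zic1 below, and the Nanog induced pools for the red cell genes.

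Several neural patterning genes fell with Oct4 and had a weaker response, or none that passed the test, to Nanog; the shares over all genes were 5.57% for a higher and 7.92% for a lower interaction. In the Shh and ventral patterning list, 0 of 19 tested members had a higher and 8 a lower interaction, of which 2 were kept. Of these 8, 5 were Oct4-specific and fell with Oct4, while 3 were Nanog-specific and rose with Nanog. In the neural progenitor list the counts were 2 higher and 7 lower of 18, with 1 and 5 kept, and in the forebrain and eye field list 3 and 6 of 18, with 2 and 3 kept. Olig2, a factor of motor neuron precursors in the ventral neural tube, lay at 14.7, 14.3 and 14.4 CPM in Oct4 controls and 2.19, 2.12 and 2.75 CPM in Oct4 induced pools. In the Nanog line it lay at 11.1 and 13.1 CPM before and 9.17, 9.38 and 10.1 CPM after induction. All Oct4 induced pools were below every other pool, and the interaction of Olig2 was -2.26 ± 0.23 (edgeR adjusted p = 2.08e-06). Nkx2-1, of ventral forebrain and lung, gave -1.72 ± 0.35. Six6, an eye and pituitary factor, lay at 5.20, 6.01 and 6.11 CPM before and 1.52, 1.27 and 0.837 CPM after Oct4 induction, and between 4.46 and 5.94 CPM in all Nanog pools. Its interaction was -2.10 ± 0.34. Not every forebrain gene went this way: Pax6 fell with Nanog by 0.73 on the log2 scale and had a log2 response of -0.19 to Oct4, which was not called. The interaction of Pax6 was 0.54 ± 0.10 and was kept.

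The POU class III genes Pou3f2, Pou3f3 and Pou3f4, which share the octamer-binding POU domain with Oct4 and act in neural precursors, fell with Oct4; Pou3f1, of the same class, has 2 gene models in the annotation and was not tested. Pou3f2 lay at 21.4, 21.4 and 16.5 CPM in Oct4 controls and 4, 7.84 and 5.14 CPM in Oct4 induced pools. In Nanog controls it lay at 10.6 and 13.2 CPM and in Nanog induced pools at 11, 16.8 and 12.2 CPM. The control levels of Pou3f2 thus differed between the lines, yet its interaction of -2.09 ± 0.29 was kept in both added fits. Pou3f4 gave -1.82 ± 0.37 and Pou3f3 -1.21 ± 0.18; Pou3f3 also fell with Nanog, by 0.58 on the log2 scale. Of 7 tested POU genes 0 had a higher and 3 a lower interaction, against 5.57% and 7.92% of all genes. The zinc-finger genes Zic1 (-0.91 ± 0.11) and Zic4 (-1.44 ± 0.24), neighbours on chromosome 9, had lower interactions. Of 5 tested Zic genes 1 had a higher and 2 a lower interaction, all kept, against the same shares of all genes. Oct4 raised 1 of the 5 and lowered 3. The midbrain-hindbrain gene En2 had an interaction of -1.35 ± 0.22. Structural and RNA-binding markers of neural progenitors moved less, with -0.59 ± 0.08 for Msi1 and -0.42 ± 0.07 for Vim.

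Many neuronal differentiation genes fell with Oct4, and fewer were called with Nanog. Of 27 tested members Oct4 lowered 16 and Nanog 7, against 3.52% and 15% of all genes; with the GC correction the counts were 18 and 5, against 4.06% and 4.05%. The interaction was lower at 6 members and higher at 0, against 7.92% and 5.57% of all genes, and 3 were kept. Nhlh1, a bHLH factor of newborn neurons, lay at 10.5, 10.3 and 10.9 CPM in Oct4 controls and 4.57, 2.76 and 3.59 CPM in Oct4 induced pools, and its interaction was called and kept. Neurod4 had log2 responses of -1.23 and -0.79 and an interaction of -0.44 that was not called. The summed level of the whole list was 483 to 610 CPM in Oct4 controls and 333 to 368 CPM after Oct4 induction. It was 460 to 602 CPM in Nanog controls and 446 to 499 CPM after Nanog induction, so the Nanog groups overlapped.

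Hes genes of the Notch pathway did not move as a group. Hes3, a repressor that keeps neural precursors from differentiating, rose in both lines. It lay at 5.76, 7.98 and 9.22 CPM before and 33.1, 25.2 and 31.9 CPM after Oct4 induction, and at 6.71 and 5.81 CPM before and 8.96, 11.1 and 11.3 CPM after Nanog induction. The interaction of Hes3 was 1.25 ± 0.24 and was kept. With the GC correction 0 members of the pathway list were called as higher with Nanog, so the rise of Hes3 with Nanog was not called there. Hes5, a Notch effector, fell with Oct4 by 0.94 on the log2 scale, and its interaction of -0.89 was not kept. Over the 20 tested members of the pathway the interaction was higher at 3 and lower at 7, against 5.57% and 7.92% of all genes, but only the 3 higher calls (Hes3, Jag1 and Dll1) were kept.

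Most red cell genes fell with Nanog, and many of them rose with Oct4. In the list of red cell membrane and haem synthesis genes, the interaction was higher at 20 of 26 tested members and lower at 0, and 18 were kept; the background for a higher interaction was 5.57%. Nanog induction lowered 21 members, against 15% of all genes, and Oct4 induction raised 12, against 3.6%; with the GC correction the counts were 19 and 11, against 4.05% and 3.83%. The median log2 response of the list was -0.83 to Nanog and 0.26 to Oct4, against 0.00 over all genes in either line. Spna1, the red cell spectrin on chromosome 1 (176102907 to 176178581, NCBIM37), lay at 32.4 and 36.1 CPM in Nanog controls and 8.75, 9.91 and 13.6 CPM in Nanog induced pools. In the Oct4 line it lay at 32.8, 42.3 and 33.8 CPM before and 51.5, 53.2 and 44.1 CPM after induction. The groups did not overlap in either line and moved in opposite directions, with an interaction of 2.10 ± 0.19 (edgeR adjusted p = 4.12e-06). The interaction of Epb4.2, a membrane skeleton protein, was 2.11 ± 0.24, and that of Slc25a37, the mitochondrial iron importer, 1.40 ± 0.11. Alas2, the first enzyme of red cell haem synthesis, which falls outside the naming rule and was chosen after its values were seen, gave 1.53 ± 0.17. It rose with Oct4 and fell with Nanog.

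Globins, the oxygen carriers, fell with Nanog except for Hbb-b1, Hbb-b2 and Hba-a2. The embryonic chain Hbb-bh1 lay at 1421, 1786 and 1555 CPM in Oct4 controls and 2310, 2300 and 1858 CPM in Oct4 induced pools. It lay at 1773 and 2227 CPM in Nanog controls and 411, 354 and 518 CPM in Nanog induced pools. Its fall with Nanog was called and its log2 response to Oct4 of 0.44 ± 0.17 was not, and the interaction was 2.67 ± 0.26 (edgeR adjusted p = 0.00101). Hbb-y and Hba-x behaved likewise, with interactions of 2.39 ± 0.26 and 1.97 ± 0.27. All globins together took 0.186% to 0.240% of counts in Nanog induced pools and 0.530% to 0.960% in the other 8. The adult chain Hbb-b1 differed: it rose in both lines, from 15.9, 32.5 and 33.6 CPM to 121, 141 and 115 CPM with Oct4 and from 18.6 and 18.3 CPM to 58.1, 49.5 and 58.8 CPM with Nanog. Hbb-b2 also rose in both. With the GC correction Nanog induction raised 1 of the 4 adult chains, against 2 without it, and Oct4 induction 2, against 3. Hba-a1 fell with Nanog, and Hba-a2 rose with Oct4 and had a log2 response of -0.02 to Nanog that was not called. The 4 adult chains summed to 761 to 1076 CPM in Nanog controls and 476 to 586 CPM in Nanog induced pools, so their sum was lower after Nanog induction, as was that of the embryonic chains, at 4641 to 6166 CPM before and 1326 to 1810 CPM after. Hbb-b1 and Hbb-b2, like Hba-a1 and Hba-a2, are near-identical copies, so the division of reads between them is uncertain.

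Blood transcription factors had 5 higher and 1 lower interaction among 15 tested members, against 5.57% and 7.92% of all genes, and the 5 higher were kept. Gata1, the master factor of the red cell lineage, lay at 9.63, 9.11 and 8.31 CPM before and 11.3, 12.7 and 11.4 CPM after Oct4 induction. It lay at 7.55 and 9.72 CPM before and 3.96, 3.36 and 4.46 CPM after Nanog induction, with an interaction of 1.51 ± 0.24. Klf1, which switches on red cell genes through CACCC boxes, rose with Oct4 by 0.66 and fell with Nanog by 1.27 on the log2 scale, an interaction of 1.93 ± 0.29. Ikzf1, a zinc-finger factor of blood cells, gave 2.01 ± 0.23, the highest of the list. Gata2, of earlier blood progenitors and vessels, went the other way at -1.11 ± 0.28 and was not kept. Of 5 tested white cell and megakaryocyte genes 1 had a higher interaction and 0 a lower one, and none was kept. Their summed level was 13.5 to 14.7 CPM in Nanog induced pools and 14.6 to 15.2 CPM in Nanog controls. Of 24 endothelial genes 0 had a higher and 5 a lower interaction, against 7.92% of all genes lower, and 1 was kept, against 159 of 14604 genes lower and kept. That gene was Lyve1, a receptor of lymphatic and early venous endothelium and macrophages, at 1.30 and 0.522 CPM before and 5, 5.48 and 4.85 CPM after Nanog induction.

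Alas2 and Epb4.2 are shown as red cell promoters that hold a GATA box, the sequence bound by Gata1. Their windows are chrX:150547167-150547416 on the plus strand and chr2:121036878-121037127 on the minus strand of GRCm38.p6, written along the gene, and capitals mark the same 4 motifs, with TTATCT the GATA box and runs such as GGGCGGGG the CACCC box read from the other strand.
Alas2: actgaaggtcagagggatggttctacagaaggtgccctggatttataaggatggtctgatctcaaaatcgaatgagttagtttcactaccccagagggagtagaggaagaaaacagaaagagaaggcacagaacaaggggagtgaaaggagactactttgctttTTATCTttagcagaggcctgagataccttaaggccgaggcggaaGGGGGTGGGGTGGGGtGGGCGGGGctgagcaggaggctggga
Epb4.2: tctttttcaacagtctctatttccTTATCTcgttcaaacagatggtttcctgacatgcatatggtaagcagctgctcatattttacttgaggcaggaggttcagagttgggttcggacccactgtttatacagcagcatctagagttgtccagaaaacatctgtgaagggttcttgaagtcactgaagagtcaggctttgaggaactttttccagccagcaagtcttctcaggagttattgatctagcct
Of 22 red cell and globin genes of these lists with a promoter in the table, 4 held a GATA box (18.2%, against 7.18% of tested genes) and 12 a CACCC box (54.5%, against 69.4%). None held an octamer.

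**Figure D4:**
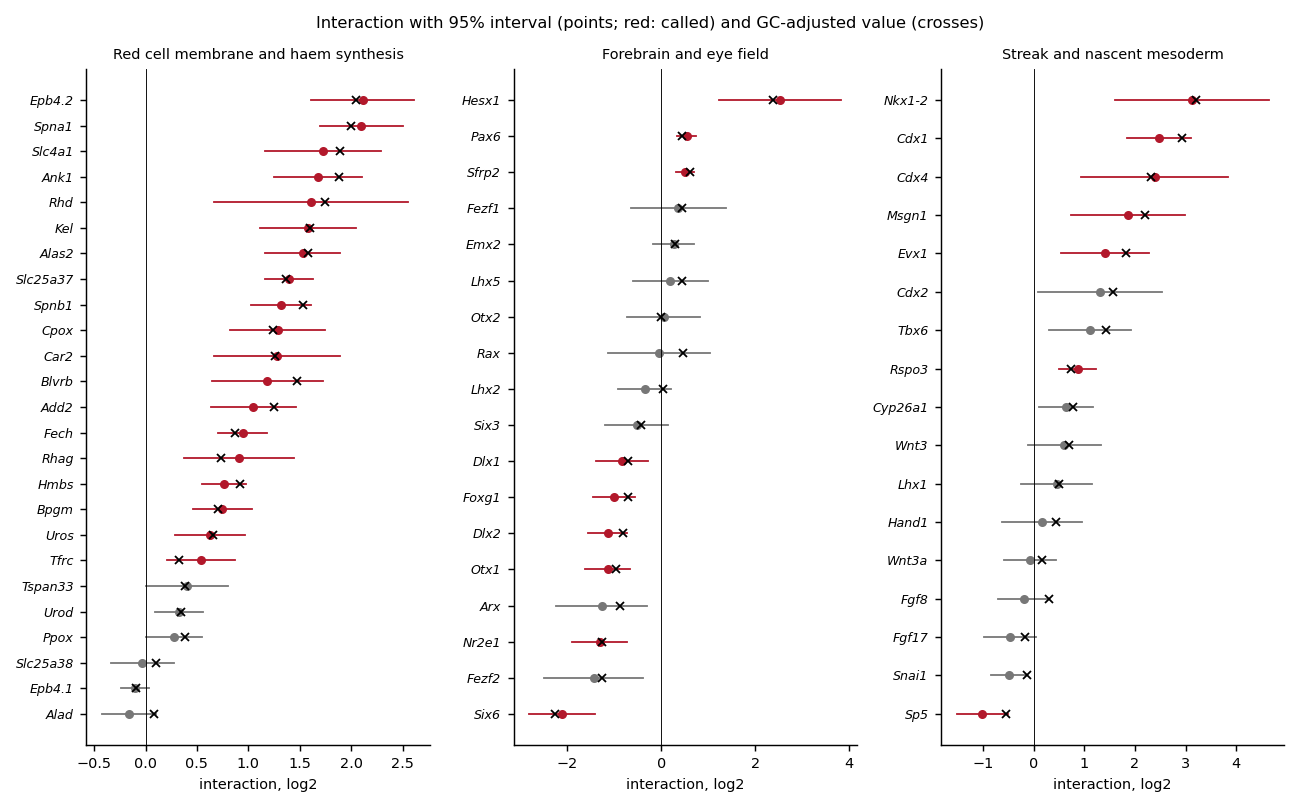
Interaction (log2 Oct4 response minus log2 Nanog response, horizontal axis) of the plotted red cell, forebrain and primitive streak genes with 95% intervals; crosses give the GC-adjusted value, and most red cell genes lie to the right of 0 while the forebrain genes lie on both sides.

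Other Nanog-specific genes had varied functions. Of the lower calls kept in the added fits, Golga7, which helps palmitoylate Ras proteins, lay at 147 and 143 CPM before and 81.3, 78.6 and 92.5 CPM after Nanog induction, and between 115 and 132 CPM in all Oct4 pools. Hemgn, a nuclear protein of blood cells, and Slc39a8, a zinc and manganese transporter, had interactions of 1.92 ± 0.19 and 1.29 ± 0.13. Of the higher calls, Trh, the precursor of thyrotropin-releasing hormone, lay at 5.79 and 8.61 CPM in Nanog controls and 22.9, 24.9 and 23.9 CPM in Nanog induced pools. It lay between 4.66 and 8.06 CPM in all Oct4 pools, so the Nanog induced pools stood alone, and its interaction was -2.13 ± 0.25. Selenbp1, a selenium-binding protein, gave -1.91 ± 0.36. By contrast Rpl12, a ribosomal protein, had one of the lowest interaction p-values of the higher class but lay at 367 and 368 CPM in Nanog controls and 528 to 584 CPM in the other 9 pools. Against the Oct4 controls its interaction turned from -0.55 to 0.03. Mdfi, Rai1, Mtap7d1, Prr12 and Erf were also not called against the Oct4 controls.

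Several lists with many interaction calls lost them in the added fits; the shares over all genes were 5.57% higher and 7.92% lower. Of 13 mitochondrially encoded genes 11 had a higher interaction; with the GC correction 0 had, and 0 were kept. Those genes took 2.82% and 2.88% of counts in the Nanog controls against 2.23% to 2.44% in the other 9 pools. Of 20 collagens 9 were lower and 2 were kept, Col2a1 and Col11a1. Col2a1, the cartilage and notochord collagen, fell with Oct4 by 0.47 and rose with Nanog by 0.49 on the log2 scale. Of 19 heat shock and chaperone genes 7 were higher and 2 kept. The part that GC content plays in these calls cannot be told apart from the group, since both Nanog controls share it.

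**Figure D5:**
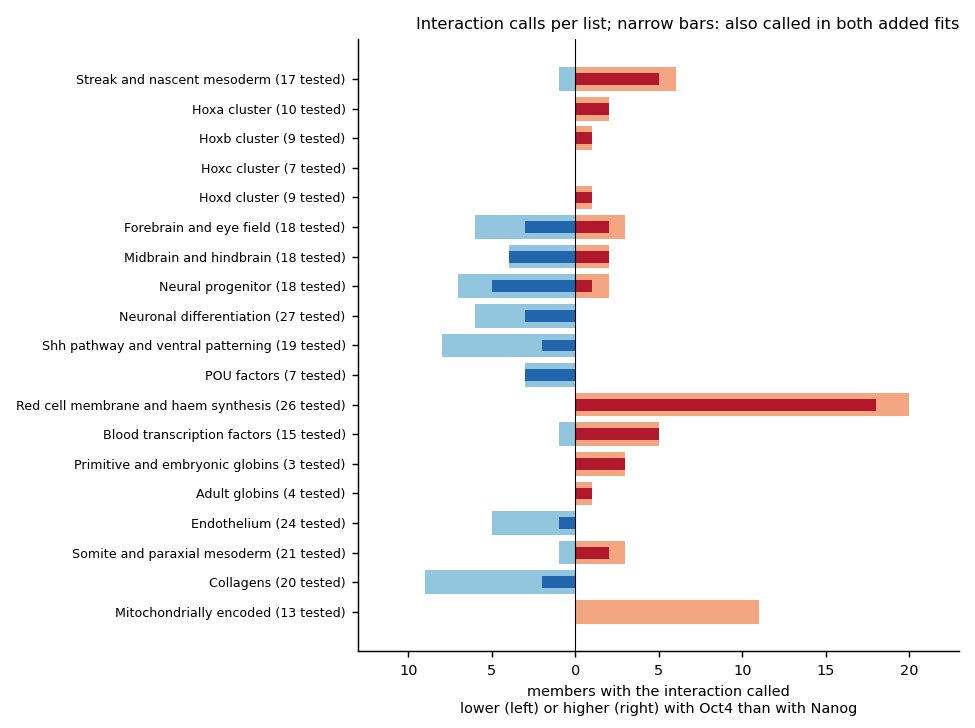
Number of genes of each list with a called interaction, higher in the Oct4 response to the right and lower to the left, with narrow bars for the calls kept in both added fits; the red cell list has 20 higher calls with 18 kept, and the mitochondrially encoded list 11 with 0 kept.

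Genes called in opposite directions included receptors, transcription factors and an enzyme of serine synthesis. Adra2b, an adrenergic receptor, lay at 4.54, 4.80 and 5.33 CPM before and 9.82, 6.78 and 6.81 CPM after Oct4 induction, and at 4.62 and 5.15 CPM before and 1.04, 0.885 and 1.36 CPM after Nanog induction. Pax5, a midbrain-hindbrain boundary factor on chromosome 4 (44544017 to 44724318, NCBIM37), did the reverse. It lay at 4.32, 5.72 and 3.77 CPM before and 2.38, 1.06 and 1.55 CPM after Oct4 induction, and at 2.34 and 2.81 CPM before and 6.04, 6.37 and 3.88 CPM after Nanog induction. The control groups of Pax5 themselves did not overlap, and its Nanog induced pools overlapped the Oct4 controls. Its interaction was kept, which does not test that both inductions were still called. Filip1, which limits migration of cortical cells by acting on filamin, rose with Oct4 by 0.94 and fell with Nanog by 0.64 on the log2 scale. Id3, an inhibitor of bHLH factors and a BMP target, lay at 137, 141 and 145 CPM before and 106, 107 and 109 CPM after Oct4 induction. It lay at 90.4 and 101 CPM before and 137, 150 and 134 CPM after Nanog induction, and its interaction of -0.95 ± 0.08 was kept. The control groups of Id3 did not overlap either, and its Nanog induced pools overlapped the Oct4 controls. Phgdh, of serine synthesis, had an interaction of -0.55 ± 0.09 and was kept too. The rise of Phgdh with Nanog was not called with the GC correction, where 0 genes of the integrated stress response list were called as higher with Nanog.

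Genes called in both lines in the same direction included the mesodermal genes Dmrt2 and Tbx6, which rose, and the neural genes Id4 and Fabp7, which fell. The shared rises also included Hes3, of neural precursors. Of the 345 genes called in the same direction 162 rose (1.11% of genes) and 183 fell (1.25%). With the GC correction both inductions were still called for 31 of the 162 and 58 of the 183. Dmrt2, a somite factor, lay at 11.4, 12.2 and 11.2 CPM before and 17.6, 19.7 and 24.0 CPM after Oct4 induction, and at 12.3 and 9.39 CPM before and 20.6, 19.99 and 20.6 CPM after Nanog induction. The induced pools were above the controls in both lines, and the interaction was -0.10 with a 95% interval of -0.49 to 0.30. Tbx6, a paraxial mesoderm factor, rose by 1.92 with Oct4 and 0.82 with Nanog on the log2 scale, and Ucp2, a mitochondrial carrier, by 0.86 and 0.78. With the GC correction 0 T-box genes were called as higher with Nanog, so the rise of Tbx6 with Nanog was not called there. Among genes that fell in both lines, Id4, a bHLH inhibitor of neural precursors, lay at 13.8, 13.9 and 11.8 CPM before and 6.58, 5.09 and 6.45 CPM after Oct4 induction. It lay at 12.1 and 14.5 CPM before and 5, 3.18 and 5.82 CPM after Nanog induction, with an interaction of 0.42 and a 95% interval of -0.12 to 0.96. The radial glia gene Fabp7 fell by 0.79 with Oct4 and by 0.90 with Nanog on the log2 scale.

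Among the shared falls some were larger with Oct4. Nr2e1, an orphan receptor of forebrain and retinal stem cells, lay at 13.4, 13.6 and 15.5 CPM before and 3.81, 2.76 and 2.03 CPM after Oct4 induction. It lay at 12.2 and 17.2 CPM before and 8.33, 7.78 and 6.79 CPM after Nanog induction. Both pairs of groups were separate, and the interaction of -1.31 ± 0.28 was called and kept. Dmbx1, a midbrain homeobox gene, gave -1.36 ± 0.28 and Nhlh2, a neuronal bHLH factor, -1.19 ± 0.30, both kept. Aldh1a3, a retinoic acid synthesis enzyme of eye and nasal tissue, gave -1.29 ± 0.26. Its relative Aldh1a2, the main enzyme of trunk mesoderm, moved differently: it lay at 51.3, 48.5 and 53.9 CPM before and 67.2, 74.2 and 77.7 CPM after Oct4 induction, and between 51.0 and 61.9 CPM in all Nanog pools. The interaction of Aldh1a2, whose promoter octamer is shown above, was 0.53 ± 0.11.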

How the data were processed

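The authors deposited one table of RSEM expected counts per gene and library, not normalized as far as the values show. RSEM 1.17, Picard, limma and cutadapt are named, with build NCBIM37, per the submitters' processing notes; the aligner and strandedness are not given in the sources used here, so overlapping and antisense genes are uncertain. Of the values of a library, 12.8% to 16.9% were not whole. Expected counts were rounded. The 11 E9.5 libraries were fitted with edgeR 4.0.16 in R 4.3.3 (TMM, filterByExpr, robust quasi-likelihood F test, two-sided, 7 residual degrees of freedom). Every adjusted p comes from that test. On simulated counts for the interaction with 14358 genes, 83% of 2-fold and 99% of 4-fold changes were recovered, with 12 false calls. The simulated counts held no GC trend and no difference between the control groups, so they do not cover that feature of the data. Changes under 2-fold were not simulated.

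Groups follow the labels. The labels call the replicates biological, and p-values measure the spread between these pools. Replicate pairs differed by more than counting noise (chi-square per degree of freedom 1.60 to 4.94). A floor of 3 counts equals 0.190 to 0.636 CPM and covers counting error only.

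Genes, lists and promoters were chosen with earlier results of these data known. Of 973 members in 55 lists, 961 were found under a single gene ID, 2 were not found, and 10 with 2 gene models were left out. The text names Pou5f1 and Nanog; the 12 highest and 12 lowest called interactions; 10 genes each higher or lower in both lines and 10 opposite, by the smaller fold change; the 8 Oct4-specific and 8 Nanog-specific genes per direction with the lowest p; all at 5 CPM or more in a group; and 4 members per list, with all Hox, globin and pluripotency genes. Promoters are from RefSeq (GRCm38.p6), a different build from the counts. Alternatives were DESeq2 1.42.0, limma-voom from limma 3.58.1, other scalings, filters, thinning, a fit over all 22 libraries, leaving out pools, a replicate block, a GC correction (per library, loess of log2 CPM deviations on exonic GC, span 0.3) and Oct4 controls for both lines.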

Additional observations from a re-analysis of the deposited data

Results flagged for a closer look

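The test of the difference itself called 1970 genes, of which 560 were kept with the GC correction and 366 in both added fits. Among the genes called in opposite directions the 10 with the largest smaller fold change are listed here, chosen for that difference. The interactions (log2 Oct4 response minus log2 Nanog response) were positive for Adra2b (2.86), Glra1 (2.72), Phf19 (2.13), Klf1 (1.93), Filip1 (1.59) and Uba7 (1.501). They were negative for Pax5 (-2.46), Tmem132e (-1.95), Unc5a (-1.92) and Caskin1 (-1.33). The interaction of Caskin1 was not called with the Oct4 controls for both lines; at the other 9 the interaction was kept, which does not test that both inductions were still called. The groups hold 2 or 3 pools, so no pool was tested as standing apart within its group.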

How the results depend on the processing

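Counts are given in the order interaction, same direction, opposite, Oct4-specific and Nanog-specific, beside 1970, 345, 78, 233 and 1521. One fit over all 22 libraries gave 229, 42, 10, 52 and 153. Thinning to the smallest total gave 1199, 186, 46, 144 and 919, so depth limits the calls. Requiring at least 2-fold gave 274, 13, 4, 88 and 97. DESeq2 gave 211 genes in the same direction and 1385 interactions. Without scaling beyond library totals, the split of higher and lower interactions was 635 and 1390, against 813 and 1157. No pairing by replicate number was used. Pools of the same number had correlations of deviations of 0.0096, -0.059 and 0.0059, but so few pairs cannot exclude a pairing. With the replicate number as a block the counts were 599, 56, 17, 59 and 483. That fit left 3 residual degrees of freedom, against 7 in the main fit. Of the alternatives added after seeing the data, the GC correction gave 745, 136, 56, 277 and 307, with the replicate block 238, 44, 14, 73 and 120. The Oct4 controls for both lines gave 1198 interactions, and 1513 with the GC correction. Leaving out each pool in turn gave 837 to 2178, 163 to 383, 45 to 77, 140 to 227 and 588 to 1708. Interactions fell to 837 without Nanog control 2 and 1265 without Oct4 induced 3. Same-direction counts fell to 163 without Oct4 control 2, 191, 218 and 226 without Oct4 induced 5, 3 and 4, and 211 without Nanog control 3. Opposite counts fell to 45 without Oct4 induced 3 and 47 without Nanog control 2, Oct4-specific counts to 140, 145 and 150 without Nanog control 2, Oct4 induced 3 and Oct4 control 2, and Nanog-specific counts to 588, 957 and 1000 without Nanog control 2, Nanog induced 2 and Oct4 induced 3. Of the named genes, 31 interaction values turned sign, all in the added fits. With the Oct4 controls for both lines these were Rpl12 (0.028), Prr12 (0.016), Acvr2b (0.081), Sp5 (0.047), Id1 (0.11), Col5a1 (0.099), Mbd3 (0.016), Dlk1 (0.16), Sesn2 (0.057), Mki67 (-0.053), mt-Nd2 (-0.12), mt-Atp8 (-0.057) and mt-Co2 (-0.032). With the GC correction as well they were Rpl12 (0.032), Acvr2b (0.0082), Id1 (0.11), Col5a1 (0.080), Dlk1 (0.17), Sesn2 (0.030), Mki67 (-0.038), mt-Nd2 (-0.12), mt-Atp8 (-0.041) and mt-Co2 (-0.028). With the GC correction alone they were Acvr2b (0.073), Mbd3 (0.081) and Bax (0.098), and with the block added Acvr2b (0.21), Mbd3 (0.0060), Bax (0.15), mt-Co1 (-0.040) and mt-Co2 (-0.021). The cause was not tested.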

Other observations

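Ligands and feedback genes of other pathways gave single differences. Lgr5, a Wnt-responsive receptor, lay at 6.25 and 5.68 CPM in Nanog controls and 9.58, 9.91 and 11.6 CPM in Nanog induced pools. In the Oct4 line it lay at 5.54, 6.71 and 5.07 CPM before and 4.57, 2.76 and 3.71 CPM after induction. Its interaction was -1.41 ± 0.28 and was kept. Bmp7, a BMP ligand, gave -0.66 ± 0.14 and was kept. The amino acid transporter Slc7a1 gave -0.54 ± 0.09 and was kept, with a fall in the Oct4 line only by the test.

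Nanog induced replicate 2 held 0.708 CPM of Ddx3y and 0.708 CPM of Eif2s3y, Y-linked genes that lay at 12.1 to 46.0 CPM in the other 10 pools. That pool also had the highest share of counts in the decile of highest GC content, 6.46%. Its chi-square per degree of freedom was 3.22 against replicate 1 and 3.14 against replicate 3, and 1.60 between those. Nanog-specific calls numbered 957 without it, against 1521. The cause was not tested. Tpm3-rs7 lay at 1.46, 0.177 and 1.75 CPM in Nanog induced pools and at 41.7 to 163 CPM in the other 8, and it shares reads with a near-identical gene, so its level is uncertain.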
